A study of Homo sapiens with 4 samples.

Results

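The genes described here are ZMPSTE24, the other enzymes that mature prelamin A, the lamins and 2 proteins of the inner nuclear membrane that bind the lamina. They were the 10 genes ZMPSTE24, FNTA, FNTB, RCE1, ICMT, LMNA, LMNB1, LMNB2, EMD and LBR, and their members were all probes that carried one of these gene names in the array files, 14 of 50599 probes. All 10 names were current RefSeq symbols. ZMPSTE24 was the member that fell in cells given a miR-335 mimic, to 55.2% of its control signal. No other member gene passed the test in either direction, and the changes of their 11 tested probes lay between -0.09 and 0.22 on the log2 scale.

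The cells were GIST-T1, an established human line from a gastrointestinal stromal tumor. Both groups were electroporated with 100 pmol of RNA, either a mirVana miR-335 mimic or the mirVana miRNA mimic Negative Control #1, and total RNA was taken after 48 h. Each group had 2 arrays (Agilent SurePrint G3 Human GE v2, 1 dye, 100 ng of labeled RNA). The title, the treatment and the first line of the description name the mimic arrays as miR-335, whereas a second line of the description carries the name miR-34a. Nothing in the labels states whether the arrays of a group came from separate transfections, so the p-values measure the spread between these arrays, which may be technical. All arrays lay on 1 slide, with the control arrays in the first positions and the mimic arrays in the last, so position and group cannot be told apart.

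Lamins are intermediate filament proteins that line the inside of the nuclear membrane. Prelamin A and the B-type lamins end in a CAAX motif, to which a farnesyl group is attached before RCE1 or ZMPSTE24 removes the last residues and ICMT methylates the new end. Prelamin A alone is then cut again by the zinc metalloprotease ZMPSTE24, which releases mature lamin A, and loss of ZMPSTE24 is known to leave farnesylated prelamin A at the nuclear envelope and to cause progeroid laminopathies. A change in the ZMPSTE24 transcript does not measure this cleavage, which acts on the protein.

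The 2 mature strands of miR-335 are shown because the agent compared was a mimic of this microRNA. The labels do not say which strand the mimic supplied. Capitals mark the seed, bases 2 to 8, and the sequences are from RefSeq (GRCh38.p14), where the hairpin lies at chr7:130496111-130496204 on the plus strand.
hsa-miR-335-5p: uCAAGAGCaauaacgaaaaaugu
hsa-miR-335-3p: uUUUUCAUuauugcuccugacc
The strands have different seeds. The 7-base match to the 5p seed, GCTCTTG, was in 0 of the 14 member probes, and it was in 0.437% of all 50599 probes on the transcript strand and in 0.466% on the other strand. The 7-base match to the 3p seed, ATGAAAA, was also in 0 member probes, beside 1.22% of all probes on the transcript strand and 1.01% on the other. A probe covers 60 bases of a transcript, so the absence of these letters concerns that window only.

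Values below are log2 processed signals minus the 75th percentile of all probes on the same array, and changes are the mimic mean minus the control mean, with the standard error of the limma fit. The arrays had 40.3% to 41.9% of all probes well above background. The 2 arrays of a group differed by a median of 0.06 per probe in both groups, whereas mimic and control arrays differed by 0.11 to 0.12. Each cell type marker was judged by its probe that was well above background on the most arrays, so other probes of it may be dim. On this count the 6 markers of gastrointestinal stromal tumor (KIT, ANO1, PDGFRA, ETV1, PRKCQ and CD34) were well above background on all 4 arrays. Of 15 markers of other cell types, EPCAM, DES and ACTG2 were too, whereas CD68 and CDH5 were on 2 arrays and the other 10 on none. Testing required a signal well above background on each array of 1 group or more, which left 20328 probes and 12 of the 14 member probes, at least 1 for each gene.

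ZMPSTE24 was measured by 1 probe, at chr1:40759577-40759636 on the plus strand (hg19, as for all probe positions below). Its values were 5.07 and 5.10 on the mimic arrays and 5.94 and 5.94 on the control arrays. The groups did not overlap, and a gap of 0.84 separated the highest mimic array from the lowest control array. The processed signals behind these values were 6362 and 6271 with the mimic and 11015 and 11126 with the control, and no spot of any array was saturated.

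The means were 5.08 ± 0.02 with the mimic and 5.94 ± 0.01 with the control (SD, n = 2 each). The change was -0.86 ± 0.04 (95% interval -0.97 to -0.75), that is 1.81-fold lower, with an adjusted p of 0.0314 in limma. Of all tested probes, 1.15% were called lower and 1.47% higher. ZMPSTE24 had the 111th lowest change of the 20328 probes, and 1.61% of the probes had a larger change in either direction. The study named ZMPSTE24 among the predicted miR-335 targets that were lowered on these same arrays, so its fall here is not independent evidence.

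The adjusted p passed 0.05 in 9 of the 17 other fits that gave one. In 1 of the 9, the fit on gene means, the values were those of the same single probe. The adjusted p did not pass in the fits named next. It was 0.125 with the replicate number as a block, 0.41 with no filter on dim probes, 0.0957 when 1 array above background was enough, 0.098 by the methods' own test after adjustment, and between 0.134 and 0.189 when any 1 of the 4 arrays was left out. The change itself stayed between -1.04 and -0.84 in every fit. Filters, variance models, the replicate block and the choice of test cannot move it, whereas scalings, background corrections and left-out arrays can.

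**Figure D1:**
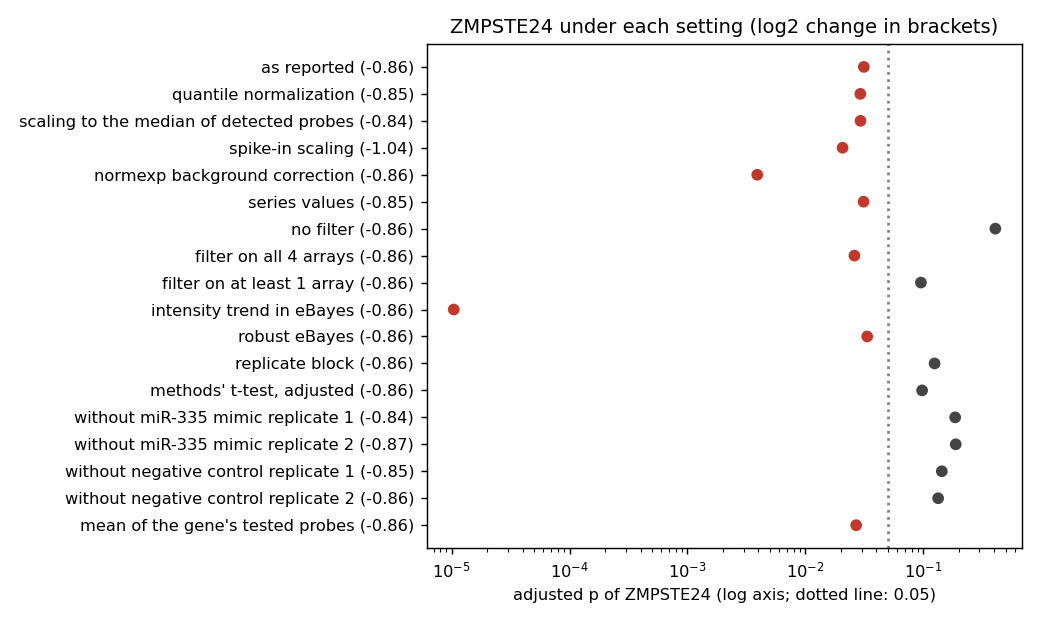
Adjusted p of ZMPSTE24 (log axis) in the reported fit and in each alternative, with the log2 change in brackets; red points lie below 0.05, the dotted line. The change is between -1.04 and -0.84 throughout, while the fits that leave out an array, block on replicate number, widen the filter or use the methods' own test with adjustment lie to the right of the line.

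A difference between probes of the same array does not depend on the scaling. ZMPSTE24 minus the mean of the other 11 tested member probes was 2.84 and 2.84 on the mimic arrays and 3.75 and 3.71 on the control arrays, a change of -0.89. The groups were again apart, and the exact two-sided permutation test of 2 against 2 arrays gave 0.333, the smallest p that this design allows. Against the LMNA probe of the lamin A transcript, the change of ZMPSTE24 was -0.86.

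The direction of the small changes depended on what the arrays were scaled to. Scaled to 7 spike-in probes, the median change of all tested probes was -0.20 and the calls were 9131 lower and 511 higher, beside 233 lower and 299 higher in the reported fit. With this scaling the changes of FNTA (-0.15), FNTB (-0.11), RCE1 (-0.14), EMD (-0.09) and both the second (-0.05) and the third (-0.19) LMNA probe were negative, against changes of 0.00 to 0.13 in the reported fit, and 6 of the 12 member probes were called lower, beside 44.9% of all probes. ZMPSTE24 was -1.04 on that scale and remained far below the shift of the whole array.

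**Figure D2:**
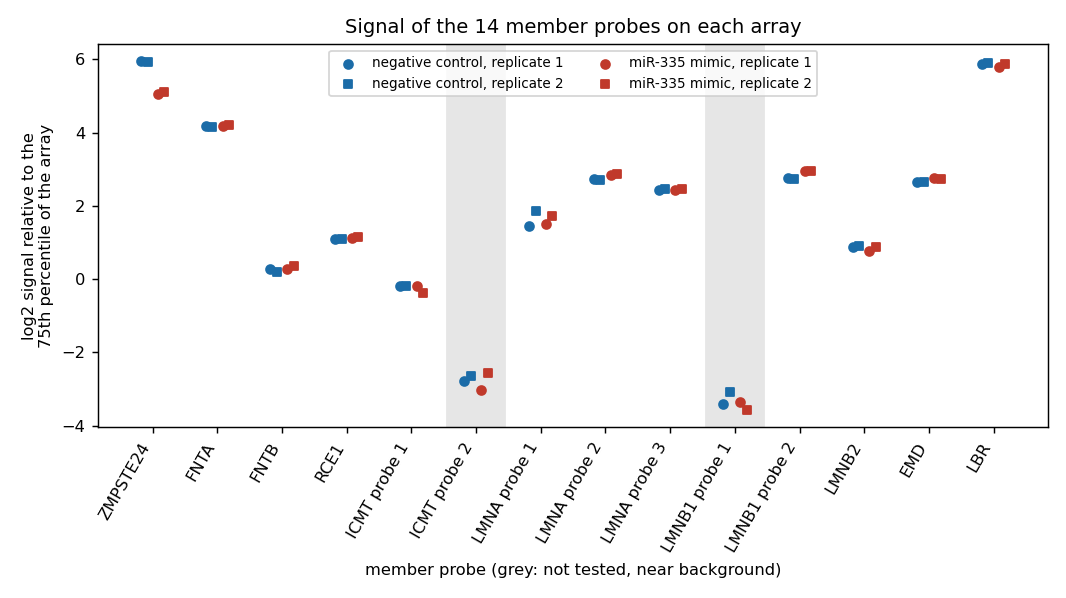
Log2 signal of the 14 member probes relative to the 75th percentile of the array, by array; blue marks the negative control, red the miR-335 mimic, circles replicate 1 and squares replicate 2, and the grey bands hold the 2 probes that were not tested. ZMPSTE24 is the member whose red and blue points are clearly apart, at 5.07 and 5.10 against 5.94.

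The enzymes that act with ZMPSTE24 did not pass the test. FNTA, the alpha subunit shared by farnesyltransferase and geranylgeranyl transferase I, was read at chr8:42940715-42940774 on the plus strand, with 4.19 and 4.21 on the mimic arrays and 4.18 and 4.16 on the control arrays. FNTB, the beta subunit that makes the enzyme a farnesyltransferase, was read at chr14:65529014-65529073 on the plus strand, with 0.27 and 0.35 against 0.28 and 0.19. The FNTA groups did not overlap by a narrow margin and the FNTB groups did overlap. The changes were 0.04 ± 0.04 (limma adjusted p = 0.593) for FNTA and 0.08 ± 0.06 (adjusted p = 0.427) for FNTB.

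RCE1, the CAAX endoprotease of the endoplasmic reticulum, was read at chr11:66613646-66613705 on the plus strand and had 1.13 and 1.15 with the mimic and 1.10 and 1.09 with the control. Its change was 0.04 ± 0.04 (limma adjusted p = 0.51), with groups that did not overlap. ICMT, the carboxyl methyltransferase of the last common step, had -0.18 and -0.37 with the mimic and -0.18 and -0.20 with the control at its tested probe (chr1:6281316-6281375, minus strand). Mimic replicate 2 was the low array and the other 3 lay together, and the change was -0.09 ± 0.08 (adjusted p = 0.548). A second ICMT probe (chr1:6294505-6294564, minus strand) was well above background on 1 control array only and was not tested.

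LMNA encodes both A-type lamins by alternative splicing: lamin A, made from prelamin A, and lamin C, which has no CAAX motif and is not processed by ZMPSTE24. The array held 3 LMNA probes, and the files assign the first and the second to transcript variant 2, which encodes lamin C, and the third to variants 1 and 3, which encode lamin A forms. The first (chr1:156106099-156106158, plus strand) and the second (chr1:156107471-156107530, plus strand) lie in coding exons that lamin A and lamin C share, so that neither reads lamin C alone. The third probe lies at chr1:156109774-156109833, also on the plus strand, near the end of the lamin A transcript. Among the 14 member probes, the longest run of bases that any pair shared was 9.

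The lamin A probe gave 2.44 and 2.45 on the mimic arrays and 2.44 and 2.45 on the control arrays. Its change was 0.00 ± 0.04 (limma adjusted p = 0.987), with a 95% interval of -0.10 to 0.11, so a change of the size seen for ZMPSTE24 was outside it. The second LMNA probe gave 2.84 and 2.87 against 2.74 and 2.70. These groups did not overlap, and the change was 0.13 ± 0.04 with an adjusted p of 0.168 in limma (unadjusted 0.0351). The adjusted p was 0.0443 with an intensity trend in limma, and the change was -0.05 with spike-in scaling.

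The first LMNA probe gave 1.49 and 1.73 with the mimic and 1.46 and 1.85 with the control. It varied more between arrays of 1 group than between groups, and its change of -0.04 ± 0.17 had a 95% interval of -0.55 to 0.46 (limma adjusted p = 0.889). The probes of LMNA were compared within each array. The lamin A probe minus the second probe was -0.40 and -0.41 with the mimic and -0.30 and -0.25 with the control, a difference of -0.13 with the exact permutation p at its smallest value, 0.333. The lamin A probe minus the first probe differed by 0.05 (exact permutation p = 1) and the second probe minus the first by 0.18 (exact permutation p = 0.667). With 2 arrays a group no such difference could pass 0.05 in this test, whatever its size.

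LMNB1, a B-type lamin that keeps its farnesyl group, had the largest change among the members after ZMPSTE24. At chr5:126172483-126172542 on the plus strand it gave 2.96 and 2.96 with the mimic and 2.75 and 2.73 with the control. Both mimic arrays were above both control arrays, by a change of 0.22 ± 0.04 (95% interval 0.11 to 0.32) with an adjusted p of 0.0846 in limma. LMNB1 passed 0.05 with normexp background correction (adjusted p = 0.0398) and with an intensity trend in limma (adjusted p = 0.00599), and its change was 0.03 when the arrays were scaled to the spike-in RNA. The other LMNB1 probe (chr5:126154854-126154913, plus strand) was not well above background on any array.

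LMNB2, the other B-type lamin, was read at chr19:2428183-2428242 on the minus strand, with 0.78 and 0.87 on the mimic arrays and 0.88 and 0.91 on the control arrays. The highest mimic array was just below the lowest control array, and the change was -0.07 ± 0.05 (limma adjusted p = 0.45). It was -0.26 with spike-in scaling (adjusted p = 0.0256) and from -0.11 to -0.02 with 1 array left out.

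EMD encodes emerin, a LEM-domain protein that binds lamin A, and was read at chrX:153609536-153609595 on the plus strand. It gave 2.75 and 2.74 with the mimic and 2.64 and 2.66 with the control, so the groups did not overlap, with a change of 0.10 ± 0.04 (limma adjusted p = 0.22) that turned to -0.09 with spike-in scaling. LBR, the lamin B receptor and a sterol reductase, was read at chr1:225589282-225589341 on the minus strand. Its values were 5.80 and 5.87 against 5.87 and 5.90, and the change was -0.05 ± 0.04 (limma adjusted p = 0.519). It was -0.24 with spike-in scaling (adjusted p = 0.0244) and from -0.08 to -0.02 with 1 array left out.

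Over the 12 tested member probes, 5 changes were negative and 7 positive (6 of these turned negative with spike-in scaling), with a median of 0.02 beside -0.01 over all tested probes. The median size of the change was 0.08 among members and 0.10 among all probes. The groups did not overlap at 8 member probes, 3 lower and 5 higher with the mimic, whereas 32.5% of all tested probes were lower without overlap and 27.1% higher. ZMPSTE24 was the member more than 1.5-fold lower (1.47% of all tested probes were) and 0 members were more than 1.5-fold higher (2.43% of all tested probes were). At an unadjusted p under 0.05 in limma, the member probes were 1 lower and 2 higher of 12, beside 5148 of all 20328 in either direction, so this count was near the background of the array.

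**Figure D3:**
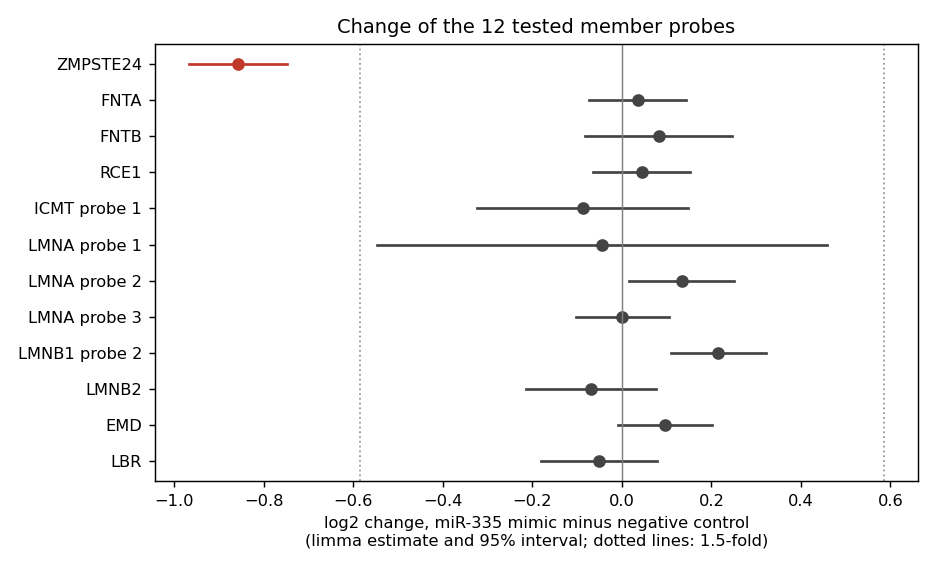
Log2 change (mimic minus control) of the 12 tested member probes with the 95% interval of the limma fit; the dotted lines mark 1.5-fold and red marks an adjusted p under 0.05. The interval of ZMPSTE24, -0.97 to -0.75, lies wholly beyond the lower dotted line and the other intervals lie inside both lines.

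**Figure D4:**
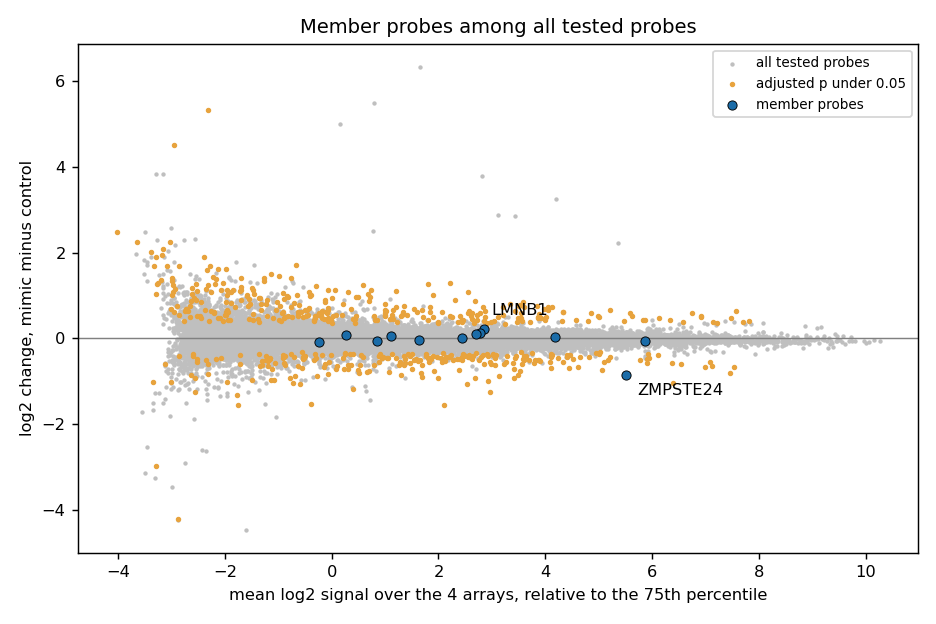
Log2 change against mean log2 signal for all 20328 tested probes (grey), those with an adjusted p under 0.05 (orange) and the 12 member probes (blue). ZMPSTE24 lies at -0.86, apart from the other member probes, which lie between -0.09 and 0.22 with LMNB1 the highest.

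Genes around this pathway were taken from 5 lists with 86 genes, of which 72 had a tested probe, and the brightest probe stood for each gene. Of the 72, 0 passed the adjusted threshold in limma, where 1.15% of all probes were called lower and 1.47% higher. At an unadjusted p under 0.05 in limma, 14 were lower and 4 higher, beside 5148 of all 20328 tested probes in either direction. The 5148 were not split by direction, so the balance of 14 to 4 has no background share beside it. There were 40 negative and 32 positive changes, with a median of -0.01, equal to that of all probes at this precision. By the methods' unadjusted test, 16 of the 72 were lower and 9 higher, larger shares than the 11.0% and 9.27% of all probes. After spike-in scaling 45 of the 72 were called lower in limma, again a larger share than the 44.9% of all probes. The lists held the brightest probe of each gene, unlike the probes of the whole array, and these differences in share were not tested.

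Of 12 genes listed under prenylation and isoprenoid supply, not all of them enzymes of these steps, 10 were tested, with a median change of -0.05. PGGT1B, the beta subunit of geranylgeranyl transferase I, had a change of -0.17 ± 0.31 (limma adjusted p = 0.758) at its brighter probe and -0.47 (adjusted p = 0.0814) at the other.

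Of 24 other proteins with a farnesylated CAAX motif, 20 were tested and the median change was -0.02. The co-chaperone DNAJA1 gave 3.02 and 3.06 with the mimic against 3.40 and 3.34, a change of -0.33 ± 0.05 (limma adjusted p = 0.0661). The changes in this list ran from -0.33 to 0.16.

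Of 23 inner nuclear membrane proteins and lamina partners, 21 were tested, with a median change of 0.00 to 2 decimals. BANF1, the barrier-to-autointegration factor that links LEM-domain proteins to chromatin, gave 3.48 and 3.45 with the mimic and 3.75 and 3.83 with the control, a change of -0.32 ± 0.05 (limma adjusted p = 0.0705). LMO7, which binds emerin, had the largest change of the lists, 1.20 ± 0.92 (limma adjusted p = 0.469), and it rested on mimic replicate 2, at 1.30, while the other arrays lay at -1.16, -1.20 and -1.07.

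The LINC complex joins the lamina to the cytoskeleton, and 4 of its 10 listed genes were tested. SYNE2 gave 0.69 and 0.82 with the mimic and 0.38 and 0.40 with the control, a change of 0.36 ± 0.06 (limma adjusted p = 0.0831), and SYNE1, the other large nesprin, had -0.18 ± 0.04 (adjusted p = 0.117). All 17 genes for breakdown and reassembly of the nuclear envelope were tested, with a median of -0.02. SPAST, the microtubule-severing ATPase spastin, had -0.31 ± 0.06 (limma adjusted p = 0.105), and PRKCB, a protein kinase C, had -0.27 ± 0.09 (adjusted p = 0.196) at its brighter probe and -0.12 at the other.

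**Figure D5:**
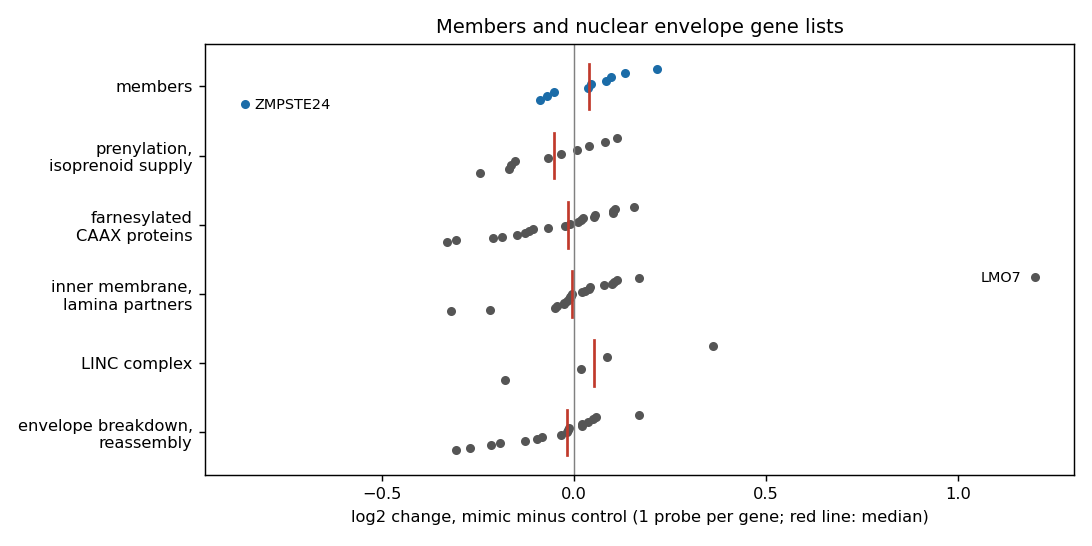
Log2 change (mimic minus control) of 1 probe per gene for the members (blue) and the 5 lists (grey), with the median of each as a red line. ZMPSTE24 at -0.86 and LMO7 at 1.20 are the genes beyond 0.5 in size, and the medians of the lists lie between -0.05 and 0.05.

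The genes whose pattern over the 4 arrays was most like that of ZMPSTE24 were found by Euclidean distance after each probe had been centred on its control mean, among 14250 genes. This likeness describes 4 arrays and carries no test. The nearest was SLIT3, a secreted ligand of the ROBO receptors, with a distance of 0.01 and a change of -0.85, although its other probe had 0.00 to 2 decimals. The others were AP3S1, a subunit of the AP-3 adaptor complex (distance 0.06, change -0.89), SERPINB9, an inhibitor of granzyme B (0.08, -0.89), LOC643454 (0.09, -0.91) and the small noncoding RNA SNAR-A3 (0.10, -0.80). The 5 probes had adjusted p-values of 0.0314 or, for SERPINB9, 0.0348 in limma. They were picked for likeness on these same arrays, so these p-values add no support. The smallest adjusted p of all tested probes was 0.0314. The other AP3S1 probes had -0.99 (adjusted p = 0.0314) and -0.98 (0.053). LOC643454 is named in the files as a pseudogene of that AP-3 subunit, and its probe shared at most 8 bases in a row with the AP3S1 probes. Only probe sequences were compared, and probes of 1 transcript can lie at different places. Whether the LOC643454 probe also reads AP3S1 was not tested, so the 2 may not be separate genes in this ranking.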

How the data were processed

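Scanner files of 4 one-color arrays were used, 2 per group. Each deposited intensity was the processed signal of Feature Extraction 10.7.3.1 per the file headers (10.7 in the submitters' processing notes), background-subtracted and detrended within the array and not normalized between arrays. The authors' series table held the same intensity, rounded, and was an alternative, as were normexp values from the mean spot and local background intensity with an offset of 50. Flags came from the same deposited files. The genome build hg19 was that of the file headers.

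Control spots and outlier spots (356 to 395 per array) were left out, spots of a probe were averaged as log2, and the 75th percentile of the array was subtracted. A probe was well above background when at least 0.5 of its spots carried that flag. The groups were compared over all 20328 tested probes with limma 3.58.1 in R 4.3.3 (lmFit, eBayes, no covariate), with Benjamini-Hochberg adjustment and a threshold of 0.05, after the scripts had been tested on simulated data. This gave 233 probes lower and 299 higher. The study's fold limit of 1.5 was counted without a test. Figures were drawn with matplotlib 3.10.9. The number of arrays limits the precision.

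The members and lists were chosen with earlier results of these data known. Named were all member probes, in each list the genes past the threshold or otherwise the 2 largest changes among genes well above background on all 4 arrays, and the 5 genes nearest to ZMPSTE24 in pattern. The values of 2 genes that this rule names are not reported here. The lists were prenylation and isoprenoid supply, farnesylated CAAX proteins, inner nuclear membrane proteins and lamina partners, the LINC complex, and nuclear envelope breakdown and reassembly. Of the 86 listed symbols, 82 were current RefSeq symbols and 4 synonyms. The alternatives were other scalings, background corrections, filters and variance models, the replicate number as a block, a t-test and fits without 1 array. Fits without 1 array kept the same tested probes. The t-test is that of the study's general statistics, which state no test for the arrays. Protein and 3′ untranslated sequences were not used here.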

Additional observations from a re-analysis of the deposited data

How the results depend on the processing

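ZMPSTE24 was lower in all 18 alternatives that gave it a value, from -1.04 to -0.84. Filters, variance models, the replicate block, the t-test and the gene mean could not move the change of this single probe. ZMPSTE24 lost its call in 8 of the 18. There the change was -0.86 with no filter (limma adjusted p = 0.41), with 1 array enough to pass the filter (0.0957) and with the replicate block (0.125). It was also -0.86 by the t-test after adjustment (0.098), and -0.87 to -0.84 with 1 array left out. In those 8 fits 0 member probes were called lower, and the calls over all probes were 0 lower and 0 higher, apart from 8 higher without mimic replicate 2. The wider filters tested more probes, and in fits without 1 array the lone array was assumed to vary like the other group. Why the calls were lost was not tested. Replicate numbers came from the labels. The replicate differences of the groups had a correlation of 0.03 across probes, which cannot settle whether the arrays were paired. The replicate block gave 0 calls for members and lists.

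Calls over all probes were 9131 lower and 511 higher with spike-in scaling, 734 and 655 with normexp and 1736 and 1347 with an intensity trend. They were 2231 and 1884 by the unadjusted t-test, and 298 and 494 past 1.5-fold. Member probes called lower were 6 with spike-in scaling, and those called higher were 1 with normexp, 2 with the trend and 3 by the unadjusted t-test. Listed genes called were 45 lower with spike-in scaling, 3 lower and 1 higher with normexp, 10 and 4 with the trend, 16 and 9 by the unadjusted t-test, and 1 higher past 1.5-fold. Signs turned with spike-in scaling for EMD (-0.0909), FNTA (-0.15), FNTB (-0.11), RCE1 (-0.14) and both the second (-0.0544) and the third (-0.19) LMNA probe. The third LMNA probe was -0.0008 from the series table and -0.0049 to 0.007 with 1 array left out. Without 1 array the first LMNA probe ranged from -0.24 to 0.15 and ICMT from -0.19 to 0.0107. Probes near background, such as the untested ones of ICMT and LMNB1, limit what can be said of those transcripts.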
